A study of Mus musculus with 3 samples.

Results

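The 6 STAT genes described here, Stat2, Stat3, Stat4, Stat5a, Stat5b and Stat6, were taken by name from the 50600 genes counted in primary T cells of C57BL/6NJ mice, and each was found once in the tables. RNA was sequenced in 3 libraries of a single group, T-cell, which the labels number as biological replicates 2, 3 and 4. The labels add no genotype, allele, agent, time or age, and no second group was analysed here. They link to protocols for differentiating CD4+ T cells and for building poly(A) libraries, although the molecule is given as total RNA, and the file headers carry the words Th0 and activated with a time of 0 h.

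STAT proteins are transcription factors that wait in the cytoplasm. When a cytokine binds its receptor, Janus kinases (JAKs) on the receptor tails phosphorylate the receptor and then a STAT, which dimerises, enters the nucleus and binds DNA. In T cells STAT6 is known for signals of interleukin 4, STAT5A and STAT5B for those of interleukins 2, 7 and 15, STAT3 for interleukins 6, 10, 21 and 23, STAT4 for interleukin 12, and STAT2 for type I interferon, where it acts with IRF9. These roles concern protein and its phosphorylation, whereas the data hold transcripts only.

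Depth was between 28340521 and 59698913 counted read pairs per library. T cell markers were high throughout, and the 6 of them (Trac, Lck, Cd4, Cd3d, Cd3e and Cd3g) summed to 7767, 7862 and 7917 TPM in replicates 2, 3 and 4. TPM is a per-length scale on which each library has the same total. All 5 B cell markers were at 1 TPM or more but summed only to between 68.4 and 112 TPM, 2 of 5 myeloid markers passed 1 TPM with sums between 16.0 and 17.0 TPM, and no dendritic cell or neutrophil marker passed it in every library, with Xcr1 and Ly6g at 0 counts. Of the CD8 and NK cell markers, Cd8b1 was at 36.5, 33.9 and 30.5 TPM and Klrd1 at 29.4, 30.3 and 28.5 TPM, and the rest were below 1 TPM. Replicate 2 stood apart in sex-linked genes, with Xist at 151 TPM against 0.221 and 0.399 TPM in replicates 3 and 4, and Ddx3y at 0.248 TPM against 80.0 and 72.3 TPM. Immediate early and heat shock genes summed to 534, 460 and 1060 TPM, highest in replicate 4. The labels give 1 donor identifier for all 3 libraries and a biosample each, and do not say whether the libraries came from separate animals. By the sex-linked genes replicate 2 had the pattern of female cells and replicates 3 and 4 that of male cells. Replicate 2 therefore did not come from the same animal as replicates 3 and 4. Sex cannot be told apart from other differences of that library. Whether replicates 3 and 4 came from separate animals is not known, so p-values measure the spread of these libraries alone. That spread may be technical in part, but not in the sex-linked genes, which divided replicate 2 from replicates 3 and 4.

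All 6 STAT genes were expressed in every library, over a span of nearly 8-fold with the summed exon length. Their summed level was 894 TPM in replicate 2, 902 TPM in replicate 3 and 912 TPM in replicate 4, a mean of 903 ± 8.89 TPM (SD, n = 3). Stat6 held 42.9% of that sum, Stat5b 22.9%, Stat3 15.2%, Stat2 7.27%, Stat5a 6.29% and Stat4 5.49%. The span and the share of Stat4 depend on the length used. With the exon length not shared with another gene, Stat4 was at 66.7 TPM and was not the lowest. Each of the 6 was above 33.4 TPM, the median of the 10030 protein-coding genes at 1 TPM or more in all libraries. In bulk RNA, fewer cells with a transcript and less of it per cell cannot be told apart.

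**Figure D1:**
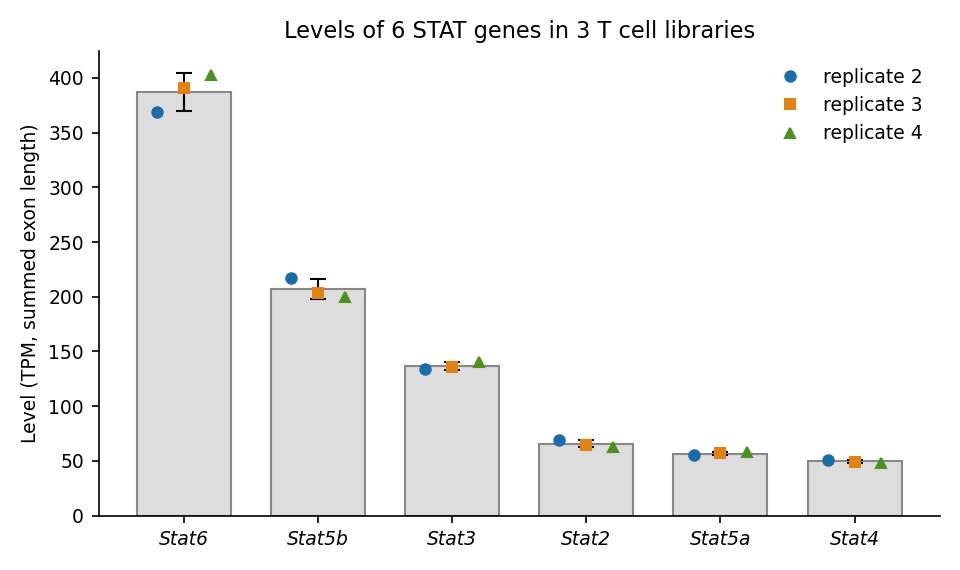
Level of each STAT gene in TPM, computed with the summed exon length. Bars are means and error bars SDs over 3 libraries, and points are replicates 2, 3 and 4. Stat6 stood near 387 TPM and Stat4 near 49.5 TPM, and the libraries of a gene lay close together beside the steps between genes.

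Stat6 was the most abundant of the 6. It stood at 368 TPM in replicate 2, 391 TPM in replicate 3 and 402 TPM in replicate 4, a mean of 387 ± 17.3 TPM from 64127 pooled counts. Replicate 2 was the lowest, and none of the others among the 6 came near this range in any library. Only 328 of the 10030 detected protein-coding genes had a higher mean. The gene (ENSMUSG00000002147.18) lies at chr10:127642986-127660957 on the plus strand of mm10, the build used for all gene positions here, and its end overlaps 40 bases of Nab2 on the opposite strand. Nab2, a corepressor of EGR factors, was at 141 ± 9.31 TPM, and counting by strand kept both apart. The neighbour on the other side, the endocytic receptor gene Lrp1, was at 0.219 ± 0.0533 TPM.

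Stat5b and Stat5a, the closest relatives among the 6, differed severalfold in level. Stat5b (ENSMUSG00000020919.11, chr11:100780731-100850724, minus strand) was at 217, 203 and 200 TPM in replicates 2, 3 and 4, a mean of 207 ± 9.03 TPM. Stat5a (ENSMUSG00000004043.14, chr11:100859351-100885169, plus strand) was at 55.2, 57.0 and 58.0 TPM, a mean of 56.8 ± 1.398 TPM. Replicate 2 was thus the highest for Stat5b and the lowest for Stat5a, and the ranges did not overlap. The length-corrected ratio of pooled counts, Stat5b over Stat5a, was 3.67, with a 95% exact interval from 3.60 to 3.73 that covers counting error only. On the log2(TPM + 0.1) scale the difference was 1.86 ± 0.10 (SD, n = 3). With the length of the longest protein-coding transcript in place of the summed exon length it was 1.08 ± 0.10, so its size depends on the length used while its sign did not.

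Reads from these paralogues can be lost where their sequences are the same. In the longest coding transcripts of GENCODE M21 the coding sequences of Stat5a and Stat5b were identical at 2128 of 2341 aligned bases (90.9%), whereas every other pair among the 6 lay between 62.3% and 67.2%. The longest uninterrupted run in common was 324 bases, coding bases 571 to 894 in both, in exons 7 to 9 of Stat5a (chr11:100874023-100874983) and exons 6 to 8 of Stat5b (chr11:100797741-100798701). Coding bases 556 to 705 of both genes are given, 15 bases of flank in lower case and the first part of the run in capitals, because a read inside the run fits both genes equally.
Stat5a coding: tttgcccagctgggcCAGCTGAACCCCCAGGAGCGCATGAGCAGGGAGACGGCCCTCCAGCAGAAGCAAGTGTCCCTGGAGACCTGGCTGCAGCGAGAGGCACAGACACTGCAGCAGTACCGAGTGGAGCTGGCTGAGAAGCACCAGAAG
Stat5b coding: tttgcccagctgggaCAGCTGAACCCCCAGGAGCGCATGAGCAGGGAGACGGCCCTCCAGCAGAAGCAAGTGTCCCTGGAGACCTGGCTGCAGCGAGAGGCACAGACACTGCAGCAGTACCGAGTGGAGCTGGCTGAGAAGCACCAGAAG
The genes differ at the last base before the capitals and at no base in capitals. Of the distinct 50-base windows in the longest transcript, 15.8% in Stat5a and 11.8% in Stat5b occurred in the other of the pair, and of 100-base windows 6.99% and 5.18%. Stat4 shared 28.6% of its 50-base windows with Gm28177, a gene that overlaps it, and Stat3 shared 23 with Stat5a, as many as the 72-base overlap of these genes on opposite strands holds. Stat2 and Stat6 shared none. The read length is not given in the sources used here, so the loss of counts in Stat5a and Stat5b was not tested and their levels are uncertain to that degree.

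Stat3 ranked between Stat5b and Stat2. It was at 134, 136 and 141 TPM in replicates 2, 3 and 4, a mean of 137 ± 3.52 TPM from 49041 pooled counts, with replicate 4 the highest. The gene (ENSMUSG00000004040.16, chr11:100885098-100939540, minus strand) had the longest summed exon length of the 6, 9527 bases against 6042 bases in its longest protein-coding transcript. GENCODE M21 lists 14 transcripts for it, 9 of them with a retained intron and 4 protein-coding. Stat5b, Stat5a and Stat3 lie together within 158810 bases of chromosome 11. Stat5b and Stat5a point away from each other across 8626 bases, and the ends of Stat5a and Stat3 overlap by 72 bases on opposite strands. The genes outside the cluster were low, with Cavin1, which encodes a caveolar coat protein, at 1 count over the 3 libraries and Ghdc at 11.9 ± 1.85 TPM, so these 3 STAT genes stood above the flanking genes on both sides.

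Stat2 led the lower group. It was at 69.1, 65.0 and 62.6 TPM in replicates 2, 3 and 4, a mean of 65.6 ± 3.28 TPM from 14762 pooled counts, and replicate 2 was the highest. The gene (ENSMUSG00000040033.16, chr10:128270559-128292849, plus strand) lies on chromosome 10 with Stat6, 609601 bases away. It sits between Apof, an apolipoprotein gene with 0 counts that ends 405 bases before it, and Il23a, which encodes the p19 subunit of interleukin 23 and had 7 counts in all. The 250 bases before its RefSeq start (GRCm38.p6, chr10:128270248-128270497, plus strand) are shown because they hold, in capitals, a match to GAAA and GAAA with 2 bases between them, the core of the interferon-stimulated response element that the STAT2 complex binds, read here from the opposite strand, and a match to TTC and GAA with 4 bases between them, the spacing that STAT6 prefers.
Stat2: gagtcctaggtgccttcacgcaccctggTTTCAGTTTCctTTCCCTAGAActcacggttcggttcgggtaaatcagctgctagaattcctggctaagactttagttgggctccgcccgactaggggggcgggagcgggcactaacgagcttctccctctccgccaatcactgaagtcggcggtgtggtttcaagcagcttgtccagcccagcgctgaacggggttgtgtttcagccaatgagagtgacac
The matches begin 222 and 210 bases before the start and do not overlap. Searched on both strands, the paired GAAA motif occurred in 3.44% of 32851 RefSeq promoter windows (250 bases before to 50 after a start) and TTC and GAA at 4 bases in 6.95%. A match of letters is a description and not a measured site.

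Stat4 was the lowest of the 6 as counted. It was at 50.9, 49.4 and 48.4 TPM in replicates 2, 3 and 4, a mean of 49.5 ± 1.24 TPM from 7270 pooled counts, the fewest of the 6. The 3 libraries differed by less than 3 TPM. The gene (ENSMUSG00000062939.11, chr1:51987148-52107189, plus strand) shares 1033 of its 3872 exon bases (26.7%) with Gm28177, a processed transcript on the same strand at chr1:52077261-52156087 that had 4, 4 and 3 counts. The other 5 STAT genes shared no exon base on their strand, and 5.77% of the 50600 genes did. The file headers set no option to count a pair that falls on exons of several genes, and featureCounts can leave such pairs out. How many pairs with an end in the shared exons were still counted for Stat4 is not known. The unshared length alone can therefore overstate its level. With the unshared exon length alone, Stat4 stood at 68.4, 66.5 and 65.1 TPM, a mean of 66.7 ± 1.69 TPM, which put it above Stat2 and Stat5a in every library. The second of its RefSeq starts has a match to the paired GAAA motif 97 bases before it, shown in capitals (GRCm38.p6, chr1:52008110-52008189, plus strand), and the first start has none.
Stat4 second start: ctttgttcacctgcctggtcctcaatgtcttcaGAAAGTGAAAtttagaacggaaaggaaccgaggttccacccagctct
In all, the paired GAAA motif was found at 2 of the 6 STAT genes, TTC and GAA at 4 bases at 1, and TTCNNNGAA, the palindrome that most STAT dimers bind, at 0, against 3.99%, 8.01% and 9.55% of 27025 genes.

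The order of the 6 held in each library with the summed exon length, Stat6 over Stat5b, Stat3, Stat2, Stat5a and Stat4. On the log2(TPM + 0.1) scale the steps were 0.90 ± 0.13 from Stat6 to Stat5b, 0.60 ± 0.10 from Stat5b to Stat3, 1.06 ± 0.11 from Stat3 to Stat2, 0.21 ± 0.11 from Stat2 to Stat5a and 0.20 ± 0.07 from Stat5a to Stat4 (SD, n = 3). In all 15 pairs the sign was the same in every library, and an exact permutation test (two-sided, flipping signs) gave p = 0.25 for each, or 0.25 after Benjamini-Hochberg adjustment over the 15. With 3 libraries p cannot be smaller, so 0.05 was out of reach. From counts alone the pooled ratio of Stat2 to Stat5a was 1.16 (95% exact interval 1.14 to 1.19) and that of Stat6 to Stat4 was 7.76 (7.57 to 7.95). Without replicate 2, the library apart in sex-linked genes, the means were 397 TPM for Stat6, 202 TPM for Stat5b, 138 TPM for Stat3, 63.8 TPM for Stat2, 57.5 TPM for Stat5a and 48.9 TPM for Stat4, in the same order.

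The places of the lower 3 changed with the definition of gene length, while the means of the upper 3 kept their order. With the longest protein-coding transcript, Stat5a was at 73.9, 76.2 and 77.5 TPM and Stat2 at 67.9, 63.8 and 61.4 TPM, so that Stat5a was above Stat2 in every library. On the same scale Stat5b was at 168, 158 and 155 TPM and Stat3 at 154, 156 and 161 TPM, which overlap, with Stat3 the higher in replicate 4, and the step from Stat5b to Stat3 was 0.03 ± 0.10 on the log2 scale with its sign in 2 of 3 libraries. Stat6 stayed highest at 313, 332 and 342 TPM. The order of Stat2, Stat5a and Stat4 thus depends on the length used, and Stat5b and Stat3 did not differ beyond their spread on the transcript scale.

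**Figure D2:**
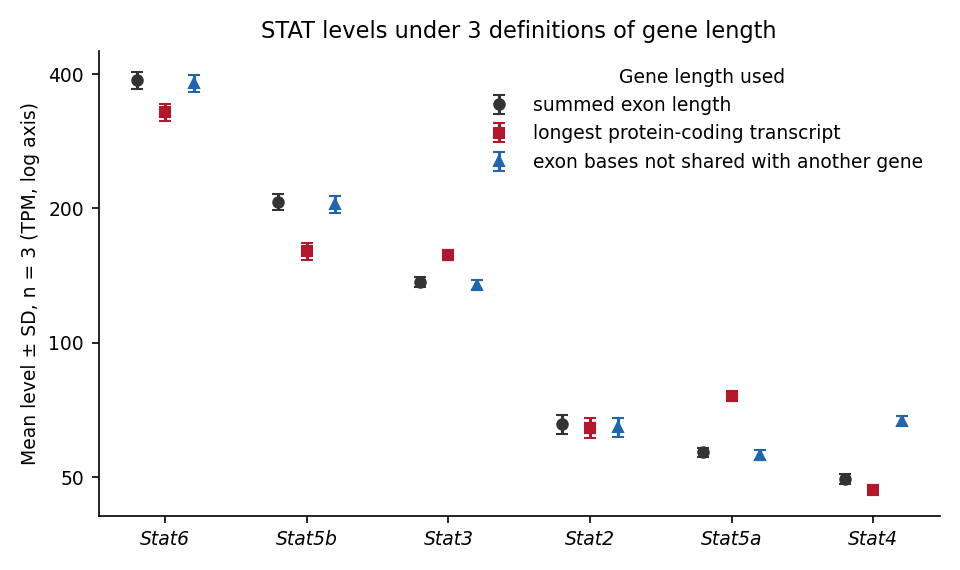
Mean level ± SD (n = 3) of each STAT gene in TPM on a log axis, under 3 definitions of gene length. Stat5b and Stat3 met near 160 TPM with the longest transcript (squares), and Stat4 moved to 66.7 TPM with unshared exon bases (triangles).

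None of the 6 passed a test for variation among the libraries beyond the spread of genes of its level. A goodness of fit test in edgeR, of a constant level against the trended dispersion, called 0 of 6 STAT genes at a Benjamini-Hochberg adjusted p of 0.05, beside 72 of the 13498 genes tested (0.533%). At so low a background a count of 0 of 6 is not a result about the STAT genes. All 6 adjusted p-values were 1.00, and 0 of 6 had an unadjusted p under 0.05, the smallest being 0.535 for Stat6. The coefficients of variation of TPM were between 2.46% and 5.00%, whereas counting error alone would give between 0.713% and 2.14%. After TMM scaling (a correction of library size in edgeR) the highest library exceeded the lowest by 0.02 on the log2 scale for Stat4, 0.07 for Stat5b, 0.09 for Stat2, 0.12 for Stat5a, 0.13 for Stat3 and 0.18 for Stat6. Their median was 0.11, against 0.19 over all genes tested, among which are many of low count. Stat3, Stat5a and Stat6 were lowest in replicate 2 and highest in replicate 4, whereas Stat2, Stat4 and Stat5b were highest in replicate 2. A p that misses the threshold does not show that levels were equal.

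**Figure D3:**
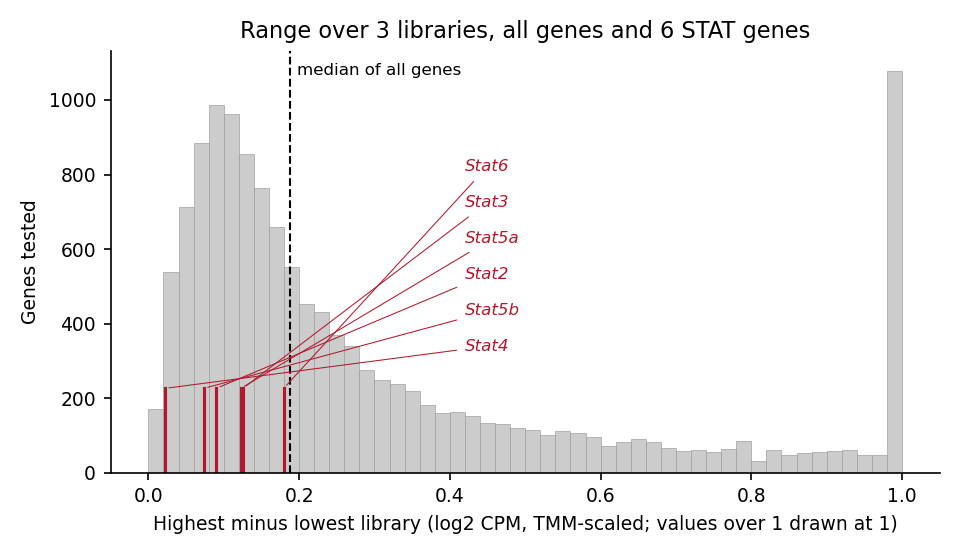
Histogram of the range over 3 libraries (highest minus lowest, TMM-scaled log2 CPM) for 13498 genes, with values over 1 drawn at 1, and red ticks for the STAT genes. The ticks ran between 0.02 for Stat4 and 0.18 for Stat6, all left of the dashed median of 0.19.

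The genes whose pattern over the 3 libraries was most like each member were found among 8530 genes by the root mean square distance of centred TMM-scaled log2 CPM (counts scaled by library size). For Stat2 they were Ifi209, Abracl and Samd9l, with distances between 0.000138 and 0.00183, and for Stat3 Topbp1, Herc1 and Rnpep. For Stat4 they were Sfxn3, Srek1ip1 and Atl3, and for Stat5a Tradd, Ak3 and Hmgb1-ps8. For Stat5b they were Zcchc7, Ccnl1 and Smad7, and for Stat6 Gpr89, Acd and Stub1, with distances up to 0.00399. With only 3 libraries between 1543 and 3624 genes lay within 0.05 of each member, so this likeness is a weak description.

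The kinases and many of the receptors that feed these STATs were transcribed too. Of the 127 genes in 15 lists of the pathway 98 could be tested for variation, and edgeR called 2 of them (2.04%), Il7r and Junb, against 0.533% of all genes tested. An unadjusted p under 0.05 was found for 16 of the 98 (16.3%) and for 554 of the 13498 genes tested (4.10%). The counts by list that follow are to be read against these shares. The lists were chosen with earlier results of these data known. Their genes also share the same libraries, so the higher shares in the lists are a description without a test. All 4 JAK genes passed 1 TPM in every library, and Jak1 led at 723, 662 and 629 TPM in replicates 2, 3 and 4. Jak3, the partner of the common γ chain, was at 206 ± 15.7 TPM, Tyk2 at 109 ± 3.34 TPM and Jak2 at 103 ± 3.11 TPM. Jak1 was the only one of these kinases above Stat6. In the common γ chain and interleukin 7 group 8 of 10 receptor genes passed 1 TPM. The highest means were those of Il7r, which was above Il2rg in replicate 2 alone, the shared chain Il2rg at 646 ± 13.4 TPM, Il21r at 486 ± 14.4 TPM and Il4ra, the receptor chain that recruits STAT6, at 334 ± 8.75 TPM.

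Il7r, whose product signals through STAT5, was the only called gene of this group. It was at 875 TPM in replicate 2, 607 TPM in replicate 3 and 556 TPM in replicate 4, highest in the library that stood apart in sex-linked genes. Its adjusted p was 0.0449 by edgeR's goodness of fit test with Benjamini-Hochberg adjustment, and between 0.0405 and 1.00 under 7 alternatives, of which 6 missed 0.05. It was 1.00 without replicate 2, 0.178 without replicate 3 and 0.393 without replicate 4. The part of the library's difference in this result was not tested.

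Receptor genes upstream of STAT3, STAT4 and STAT2 came next. Of 12 genes in the gp130, interleukin 6, 10 and 12 groups 7 passed 1 TPM, led by Il27ra at 503 ± 24.9 TPM, Il6ra at 226 ± 3.88 TPM, the shared chain Il6st (gp130) at 150 ± 7.32 TPM and Il10ra at 32.1 ± 5.69 TPM. Osmr, Il23r and Il22ra1 had 0 counts. For the interleukin 12 receptor upstream of STAT4, Il12rb1 was at 3.39, 3.23 and 3.09 TPM and Il12rb2, the chain that binds STAT4, at 0.661, 0.396 and 0.760 TPM. Stat4 was above both chains of this receptor in all 3 libraries. Interferon receptor genes passed in 4 of 5 cases, with Ifnar1 at 112 ± 4.05 TPM and Ifnar2 at 63.1 ± 5.23 TPM for type I interferon, which activates STAT2, and Ifngr1 at 109 ± 12.6 TPM and Ifngr2 at 81.0 ± 1.59 TPM for interferon γ. Of 10 hormone and colony stimulating factor receptors 2 passed, Il3ra at 25.1 ± 4.16 TPM and Csf2ra at 15.9 ± 3.05 TPM, while Csf2rb, the β chain that signals with Csf2ra, was at 0.291 ± 0.248 TPM, Csf3r was at 0.265 ± 0.203 TPM, and Lepr had 0 counts. None of the receptor genes in these groups was called by the edgeR test, and 4 of them (Il10ra, Csf2ra, Csf2rb and Csf3r) had an unadjusted p under 0.05.

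Most cytokine ligand genes were below 1 TPM. Of 19 genes 2 passed 1 TPM in every library, Osm (oncostatin M) at 51.4, 51.7 and 53.4 TPM and Il2 at 2.19, 2.05 and 2.85 TPM. Ebi3, a subunit of interleukins 27 and 35, was at 1.05 ± 0.338 TPM and Lif at 0.526 ± 0.234 TPM. Il6, Il7, Il9, Il13, Il15, Il27, Ifnb1 and Ifna4 had 0 counts in all libraries.

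The inhibitors of the pathway were present almost in full. Of 8 SOCS and CISH genes, which encode feedback inhibitors of JAKs and receptors, 7 passed 1 TPM. Socs3, which acts on gp130 receptors, led at 218, 195 and 262 TPM, followed by Socs1 at 76.7 ± 1.43 TPM, Socs4 at 41.2 ± 2.49 TPM and Socs7 at 28.8 ± 2.37 TPM. Socs2 was at 0.0876 ± 0.0309 TPM. All 4 PIAS genes, which encode SUMO ligases that restrain STATs, lay between 19.6 TPM for Pias3 and 47.0 TPM for Pias4, with Pias1 at 44.3 TPM and Pias2 at 36.5 TPM. All 8 phosphatases and other inhibitors passed, led by Ptpn6 (SHP-1) at 626 ± 46.6 TPM, Ptprc (CD45) at 471 ± 11.2 TPM, Ptpn1 at 174 ± 2.13 TPM and the adaptor Sh2b3 at 72.4 ± 3.99 TPM. No inhibitor was called by the edgeR test, and 2 (Socs3 and Socs5) had an unadjusted p under 0.05.

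All 12 genes of nuclear import and STAT cofactors passed 1 TPM, and the edgeR test called 0, with 0 at an unadjusted p under 0.05. The import receptor Kpnb1 was at 212 ± 5.20 TPM and Ndufa13, a complex I subunit that also binds STAT3, at 177 ± 5.59 TPM. Irf9, the DNA-binding partner of STAT2, was at 143, 127 and 131 TPM, above Stat2 in every library, and Parp14, a cofactor of STAT6, was at 103 ± 2.64 TPM.

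**Figure D4:**
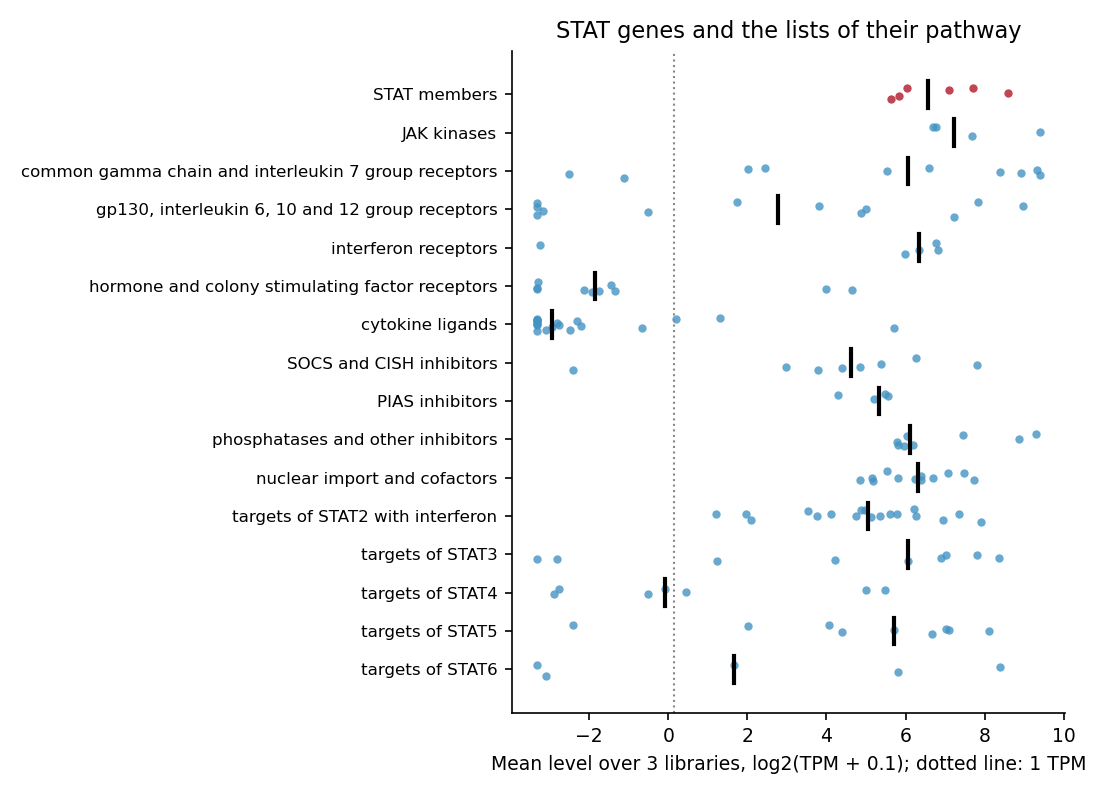
Mean level over 3 libraries, as log2(TPM + 0.1), of each STAT gene (red) and of the genes of 15 pathway lists (blue). Black bars are list medians and the dotted line marks 1 TPM. JAKs, inhibitors and cofactors sat mostly right of the line, and most ligands and hormone receptors left of it.

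Known targets were unevenly transcribed. All 18 interferon-stimulated genes listed as targets of STAT2 passed 1 TPM, with Bst2 (tetherin) at 238 ± 3.82 TPM, the nucleic acid sensor Zbp1 at 164 ± 9.12 TPM, Irf7 at 138, 110 and 120 TPM and Isg15, a ubiquitin-like protein, at 88.7, 72.9 and 68.8 TPM. None was called by the edgeR test, and 5 (Ifit1, Ifit3, Oas2, Oas3 and Rsad2) had an unadjusted p under 0.05. Ifit3, an antiviral effector, was at 44.3, 29.6 and 30.3 TPM, with replicate 2 the highest. The median range of the 18 was 0.32 on the log2 scale against 0.19 over all genes tested. Replicate 2 was the highest library for 14 of the 18 (77.8%), and for 44.7% of all 10030 detected protein-coding genes. This library, apart in sex-linked genes, was also the highest for Stat2 and Irf9. As these genes share the 3 libraries, that count rests on 1 library and has no test, and the part of the sex-linked difference in it was not tested.

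Stretches from Isg15 and from Socs1, which is not among the listed STAT2 targets, are shown because they carry the letters seen at Stat2 and Stat4 closer to the start. The paired GAAA motif was found in 8 of the 13 STAT2 targets that the RefSeq table holds (Bst2, Ifih1, Ifit1, Ifit3, Isg15, Oas1a, Oas3 and Rsad2). Its share over all 27025 genes in that table was 3.99%. The lines give Isg15 (chr4:156200859-156200918, minus strand), where 3 overlapping matches run together, and the inhibitor Socs1 (chr16:10785577-10785636, minus strand) with 2 overlapping matches, both in GRCm38.p6 with matches in capitals.
Isg15: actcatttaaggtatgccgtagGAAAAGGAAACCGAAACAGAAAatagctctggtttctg
Socs1: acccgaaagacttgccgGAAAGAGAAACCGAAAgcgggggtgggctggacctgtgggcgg
The matches begin between 66 and 78 bases before the start of Isg15, and 83 and 77 bases before that of Socs1.

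Of 9 listed targets of STAT3, 7 passed 1 TPM, with the AP-1 gene Junb at 277, 283 and 423 TPM, Socs3 as above, the kinase gene Pim1 at 129 ± 5.44 TPM and the AP-1 factor gene Batf at 119 ± 12.1 TPM. Il23r had 0 counts. Junb was called (adjusted p = 0.00533, edgeR goodness of fit with Benjamini-Hochberg adjustment) and was highest in replicate 4, the library in which 5 of the 6 immediate early and heat shock genes, Junb among them, were highest. The exception, Egr1, was at 69.8, 79.6 and 74.1 TPM. Replicate 4 was the highest library for 23.5% of all 10030 detected protein-coding genes. Without replicate 4 the adjusted p of Junb was 1.00 in the same test. Stat3, Stat5a and Stat6 were also highest in replicate 4, with Stat3 at 141 TPM, and none of them was called. The part of the immediate early genes in this was not tested.

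Targets of STAT5 passed in 8 of 9 cases. The D cyclin genes Ccnd2 and Ccnd3 were at 276 ± 26.9 and 138 ± 15.2 TPM, and Pim1 is given above. The survival gene Bcl2 was at 121, 98.1 and 86.0 TPM, highest in replicate 2 as Il7r was. That library was the highest for 3 of the 8 targets that passed (37.5%), and for 44.7% of all 10030 detected protein-coding genes. Cish, the inhibitor that STAT5 induces, was at 20.9 ± 0.941 TPM, and Il2ra, the α chain of the interleukin 2 receptor, at 3.48, 2.83 and 5.49 TPM. Of 7 targets of STAT4 only Il18r1 at 44.8 ± 0.856 TPM and the protease gene Furin at 32.0 ± 1.99 TPM passed. Tbx21, the Th1 regulator, was at 1.10, 0.845 and 1.87 TPM, Il18rap was at 0.839 ± 0.103 TPM, and Ifng had 3 counts in all. Of 5 targets of STAT6, Il4ra, Gata3 at 56.4 ± 4.43 TPM and Nfil3 at 3.06 ± 0.471 TPM passed, whereas Il4 had 1 count and Il24 had 0. No target of STAT4, STAT5 or STAT6 was called by the edgeR test, and Bcl2 and Il2ra were the 2 with an unadjusted p under 0.05. Ifng, Il4 and Il24, the cytokine genes among the targets of STAT4 and STAT6, were thus at 3 or fewer counts while Stat4 had 7270 and Stat6 64127.

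The palindrome TTCNNNGAA, searched on both strands and equal to its own reverse complement in its fixed letters, was found in 9.55% of all genes in the table and in 0 of the 6 STAT genes, a count near that background. It was found in 2 of the 4 SOCS and CISH genes in the table, Cish and Socs3. Stretches from Cish (chr9:107296654-107296683, plus strand), Socs3 (chr11:117969482-117969541, minus strand) and the second start of Bcl6 (chr16:23981359-23981458, minus strand), a listed target of STAT3 that encodes a repressor and was at 18.4 ± 1.48 TPM, are shown from GRCm38.p6 with matches in capitals.
Cish: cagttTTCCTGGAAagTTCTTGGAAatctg
Socs3: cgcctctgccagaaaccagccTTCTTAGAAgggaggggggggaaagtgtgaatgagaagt
Bcl6 second start: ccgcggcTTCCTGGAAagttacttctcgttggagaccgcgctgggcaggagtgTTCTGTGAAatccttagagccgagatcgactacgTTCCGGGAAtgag
Cish has 2 matches at its start, Socs3 has 1 that begins 154 bases before the start, and Bcl6 has 3 between 168 and 88 bases before its second start. Over the target lists, TTCNNNGAA was found in 3 of 13 STAT2 targets in the table, 2 of 8 STAT3 targets, 3 of 7 STAT4 targets, 1 of 6 STAT5 targets and 1 of 4 STAT6 targets, beside 9.55% of all genes.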

How the data were processed

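The authors deposited 1 table per library with raw counts (read pairs assigned to each gene). Per the file headers these were made with featureCounts 1.4.6-p4 on GENCODE vM13 (mm10), by exon and gene, with both ends aligned and reverse strand counting. Aligner settings and read length: not given in the sources used here. Symbols were matched for 50376 of 50600 genes. TPM were computed here from counts and the summed exon length in the deposited tables.

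Variation was tested with edgeR 4.0.16 (R 4.3.3) by the deviance of a negative binomial model with an intercept alone. Settings were TMM scaling, trended dispersion, a mean count of 10 or more and a Benjamini-Hochberg threshold of 0.05. The test was checked only on counts simulated with the fitted dispersion that it assumes, so that check does not cover other spreads. Differences between genes used log2(TPM + 0.1) and exact permutation of signs, two-sided. Intervals are exact at 95%. Promoter sequences are RefSeq's (GRCm38.p6) and coding sequences GENCODE M21's. Alternatives were gene lengths, scalings, filters, dispersions, thresholds and left-out replicates, and unshared exon length was added after seeing the data.

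The 6 members and the 15 lists (127 genes) were chosen with earlier results of these data known. Besides all members, the text names their neighbours, the 4 highest genes of each list, called genes, genes at 0 counts and the 3 most alike genes. Il12rb1, Il12rb2, Il2ra, Socs2, Socs5, Cish, Bcl6, Ifng, Ifit1, Ifit3, Oas2, Oas3, Rsad2, the genes with a promoter match and the marker genes fall outside this rule and were chosen after their values were seen. Some further genes are not reported here.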

Additional observations from a re-analysis of the deposited data

How the results depend on the processing

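Of the 15 differences between members, 12 kept their sign under every setting. With the longest protein-coding transcript Stat2 over Stat5a was -0.24 on the log2 scale, and with unshared exon length Stat2 over Stat4 was -0.0443 and Stat5a over Stat4 -0.25; a change of the length itself makes these shifts. Means with the longest transcript were 157 TPM for Stat3, 46.9 for Stat4, 75.9 for Stat5a, 160 for Stat5b and 329.0 for Stat6, and with unshared length Stat4 was at 66.7 TPM. Over protein-coding genes alone they were 70.8 for Stat2, 148 for Stat3, 53.5 for Stat4, 61.3 for Stat5a, 223 for Stat5b and 418 TPM for Stat6, and without genes under 200 bases 142 for Stat3, 51.3 for Stat4 and 58.7 TPM for Stat5a, since the total they are scaled to is smaller. The count of varying genes, 72, was 312 with a common dispersion and between 35 and 46 with a replicate left out (35 without replicate 2, 39 without replicate 3 and 46 without replicate 4), and the adjusted p of every member stayed at 1.00. At 5 TPM 1 ligand passed, and at 0.5 TPM 4 targets of STAT4 did. No paired comparison of groups was possible because the libraries form a single group, whereas genes were compared within each library. Depth limits the genes near 0 counts more than the STAT genes, which had at least 1494 counts in each library.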
